A study of Mus musculus with 12 samples.

Results

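The nuclear-encoded subunits of mitochondrial complex I were examined in single muscle fibers of young and aged mice. The members were the 36 genes whose symbol is Ndufa, Ndufb, Ndufc, Ndufs or Ndufv followed by a number, plus Ndufab1, out of 55367 distinct gene symbols listed. Ndufa4, which is now counted with complex IV, and the Ndufaf assembly factors were left out. The symbols split them into 11 core-lettered genes (Ndufs and Ndufv) and 25 accessory genes (Ndufa, Ndufb and Ndufc). All 36 passed the filter on low values and were tested.

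Complex I (NADH:ubiquinone oxidoreductase) is the entry point of the respiratory chain. It takes electrons from NADH in its N module, passes them along iron-sulfur clusters to ubiquinone in its Q module, and pumps protons through its membrane arm, the P module. The reaction is carried out by the catalytic core subunits, some encoded in the nucleus and some in mitochondrial DNA, and the supernumerary subunits surround, stabilize and help to assemble this core. The letters of the gene symbols do not map exactly onto this division. Only 7 of the 11 core-lettered genes encode catalytic core subunits, whereas Ndufs4, Ndufs5, Ndufs6 and Ndufv3 encode supernumerary subunits. By position, 10 members were assigned to the N module, 6 to the Q module, 9 to the proximal and 11 to the distal part of the membrane arm. Ndufa6, Ndufa7, Ndufa9 and Ndufab1 lie at a border or in more than 1 place.

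The fibers came from the extensor digitorum longus (EDL), a fast muscle of the hindlimb, of male C57BL/6J mice, for which no treatment is named. They were loaded with Fluo-4, a dye that fluoresces when it binds Ca2+, and those of aged mice (26 to 28 months) were separated by the look of that signal. There were 4 samples of Fluo-4 abnormal fibers, 4 of Fluo-4 normal fibers from aged mice and 4 of myofibers from young mice (3 to 4 months). Neither the labels nor the methods say how many fibers or mice stand behind a sample, so the p-values measure the spread between these samples.

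Values are TPM (transcript abundance corrected for length and scaled to a fixed total) as the authors deposited them, and read depth cannot be read from them. The 7 myofiber markers summed to 161410 to 183582 TPM in abnormal fibers, above the 133847 to 155938 TPM of normal and the 155869 to 160148 TPM of young fibers. All 7 had a higher mean in abnormal than in normal fibers, as had 10045 of all 14429 genes tested. Of the 7, 2 were called by limma, Actn3 and Myh4 (7.36% of all genes were called higher). The summed level of 6 satellite cell markers was 56.4 to 74.0 TPM in abnormal fibers against 42.9 to 50.6 TPM in normal fibers, and that of 6 immune markers was 2.63 to 5.71 TPM against 1.01 to 1.69 TPM. Taken singly, the satellite cell markers had a median difference of 0.06 on the log2 scale (0.10 over all genes). Their values ran from -0.13 to 0.55, and 1 was called higher. Markers of endothelium, fibroblasts, erythroid cells and adipocytes overlapped between these groups, and 3 of the 5 adipocyte markers were at 0 throughout. Of the immune markers, Cd3e measured 2.10 to 4.86 TPM in abnormal and 0.608 to 0.854 TPM in normal fibers, while Itgam was at 0 in all samples and Ptprc, the common leukocyte antigen, reached at most 0.262 TPM. The part of these markers in the results was not tested.

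In the young fibers the members' mean levels ran from 203 TPM for Ndufs1 to 1813 TPM for Ndufb9, with a median of 704 TPM. The same genes stood at the ends of the range in Fluo-4 normal fibers (217 and 1969 TPM) and in Fluo-4 abnormal fibers (164 and 1436 TPM). The SD between samples was small beside these levels, with a median coefficient of variation over the members of 6.72% in young, 9.21% in normal and 7.06% in abnormal fibers.

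The first comparison asked how Fluo-4 abnormal fibers differ from the normal fibers of aged muscle. The mean of every one of the 36 members was lower in abnormal fibers, and 23 fell at an adjusted p under 0.05 (limma on log2(TPM + 1), Benjamini-Hochberg over 14429 genes). Of all genes tested, 1.99% were called lower. The members' median difference was -0.35 on the log2 scale, while the median over all genes was 0.10, which places the members 0.45 below the typical gene (difference -0.45). In 24 members all 4 abnormal samples lay below all 4 normal samples, which was so for 2.54% of all genes. TPM is a share of a fixed total and does not measure RNA per fiber, and over all genes 1062 were called higher and 287 lower. A lower share within fibers, a rise of other transcripts and fewer fibers of a kind cannot be told apart in such samples.

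**Figure D1:**
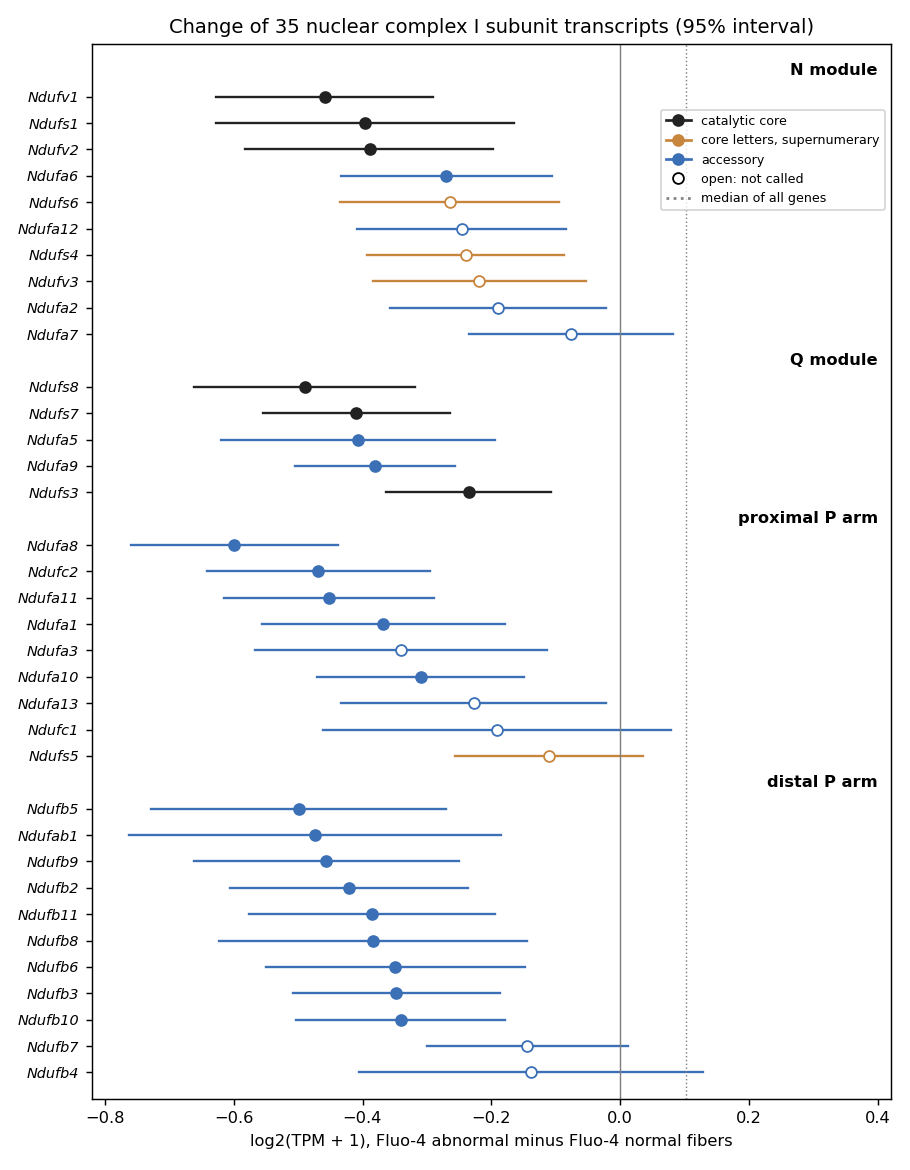
Difference in log2(TPM + 1) between Fluo-4 abnormal and Fluo-4 normal fibers for 35 of the 36 members, grouped by module, with 95% intervals (4 samples a group). Filled points were called lower (adjusted p under 0.05), and all 35 points lie left of 0, from -0.60 for Ndufa8 to -0.08 for Ndufa7.

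Summed over the 36 genes, the level was 25560, 23060, 21280 and 22990 TPM in Fluo-4 abnormal samples 1 to 4. Among the Fluo-4 normal fibers these sums were 32720, 29370, 27170 and 27620 TPM, and in the young samples they were 29170, 26640, 26770 and 29980 TPM. The abnormal samples all lay below the samples of the other groups, with abnormal sample 1 closest to the lowest young sample. Same-numbered abnormal and normal samples deviated together from their group means, and 33 of the 36 members were lower in the abnormal sample of all 4 numbers. The exceptions were Ndufs1 in number 1, Ndufb4 in number 2 and Ndufa7 in number 4. No such count by number was made over all genes, of which 4247 of 14429 had a lower mean in abnormal than in normal fibers.

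**Figure D2:**
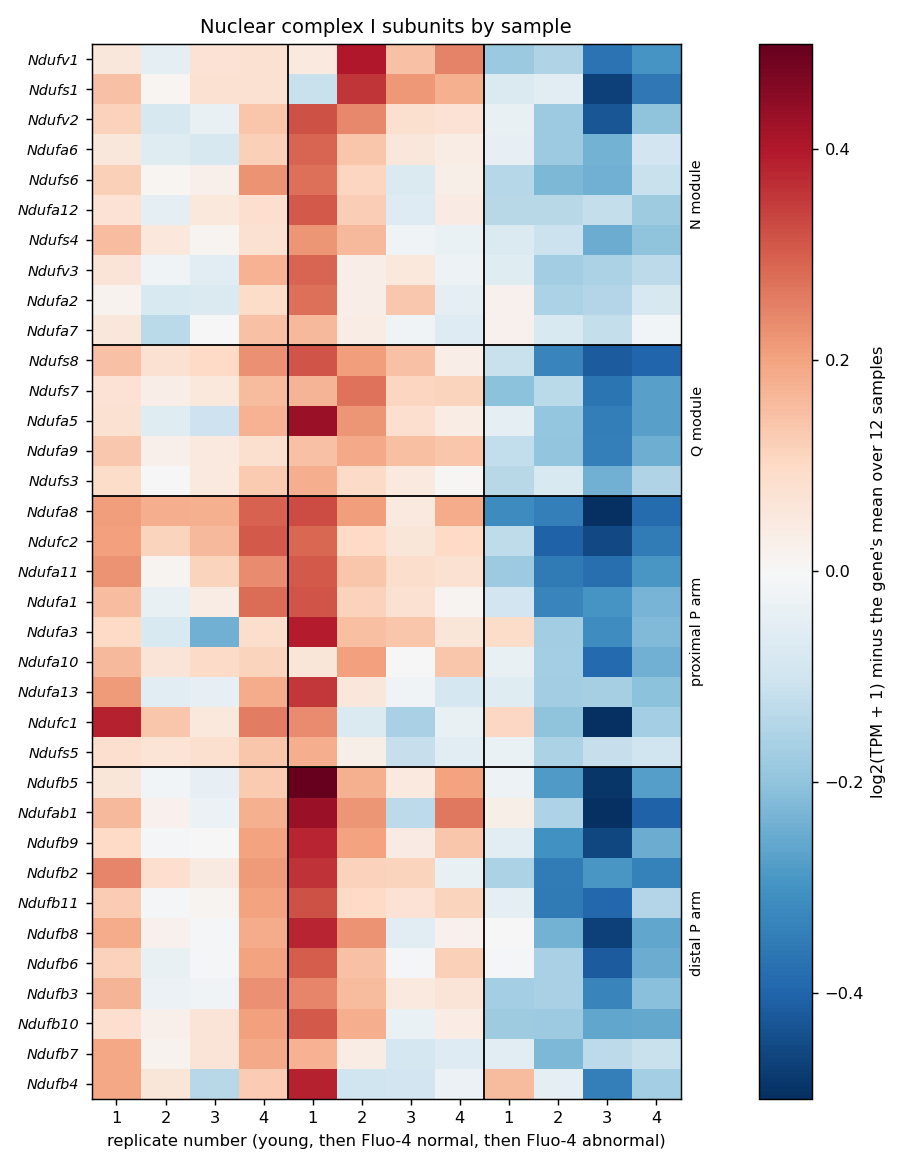
Each row is 1 of 35 members and each column a sample, coloured by log2(TPM + 1) minus the gene's mean over the 12 samples (red higher, blue lower). The 4 abnormal columns at the right are mostly blue, and Fluo-4 normal sample 1 is the reddest column for most members.

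The 7 catalytic core subunits carry the flavin, the iron-sulfur clusters and the ubiquinone site. Their median difference was -0.40, and 6 of the 7 were called lower. Ndufv1, the flavin-bearing subunit that oxidizes NADH, measured 302, 309, 266 and 280 TPM in the abnormal samples and 355, 454, 380 and 408 TPM in the normal samples. The groups did not overlap, and the difference was -0.46 ± 0.08 (SE, n = 4 and 4; limma adjusted p = 0.00405). Ndufv2, its iron-sulfur partner, measured 508, 460, 388 and 454 TPM against 651, 616, 552 and 549 TPM, also without overlap (-0.39, limma adjusted p = 0.0171).

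Ndufs1, the large iron-sulfur subunit of the N module, behaved less evenly. It measured 183, 185, 139 and 150 TPM in abnormal fibers and 178, 247, 224 and 218 TPM in normal fibers. The groups overlapped because normal sample 1 lay below 2 abnormal samples, and the difference was -0.40 (limma adjusted p = 0.0354). It was not called once same-numbered samples were blocked (limma adjusted p = 0.120). The annotated exons of Ndufs1 overlap those of Eef1b2, a translation factor gene on the opposite strand, and libraries without strand information cannot separate the reads. The part of that overlap was not tested.

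In the Q module, Ndufs8 and Ndufs7 bind the last iron-sulfur clusters before ubiquinone. Ndufs8 had the largest difference of the catalytic subunits, with 397, 341, 321 and 325 TPM in abnormal fibers and 534, 496, 474 and 439 TPM in normal fibers (-0.49 ± 0.08 SE, n = 4 and 4; limma adjusted p = 0.00334). Ndufs7 measured 1080, 1134, 967 and 1031 TPM against 1403, 1502, 1342 and 1346 TPM (-0.41, limma adjusted p = 0.00352). Neither gene's groups overlapped.

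Ndufs3, a catalytic core subunit of the same module without a cluster of its own, differed less. It measured 407, 425, 380 and 404 TPM against 509, 480, 464 and 451 TPM (-0.24, limma adjusted p = 0.0262). Its abnormal samples all lay below its normal samples.

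**Figure D3:**
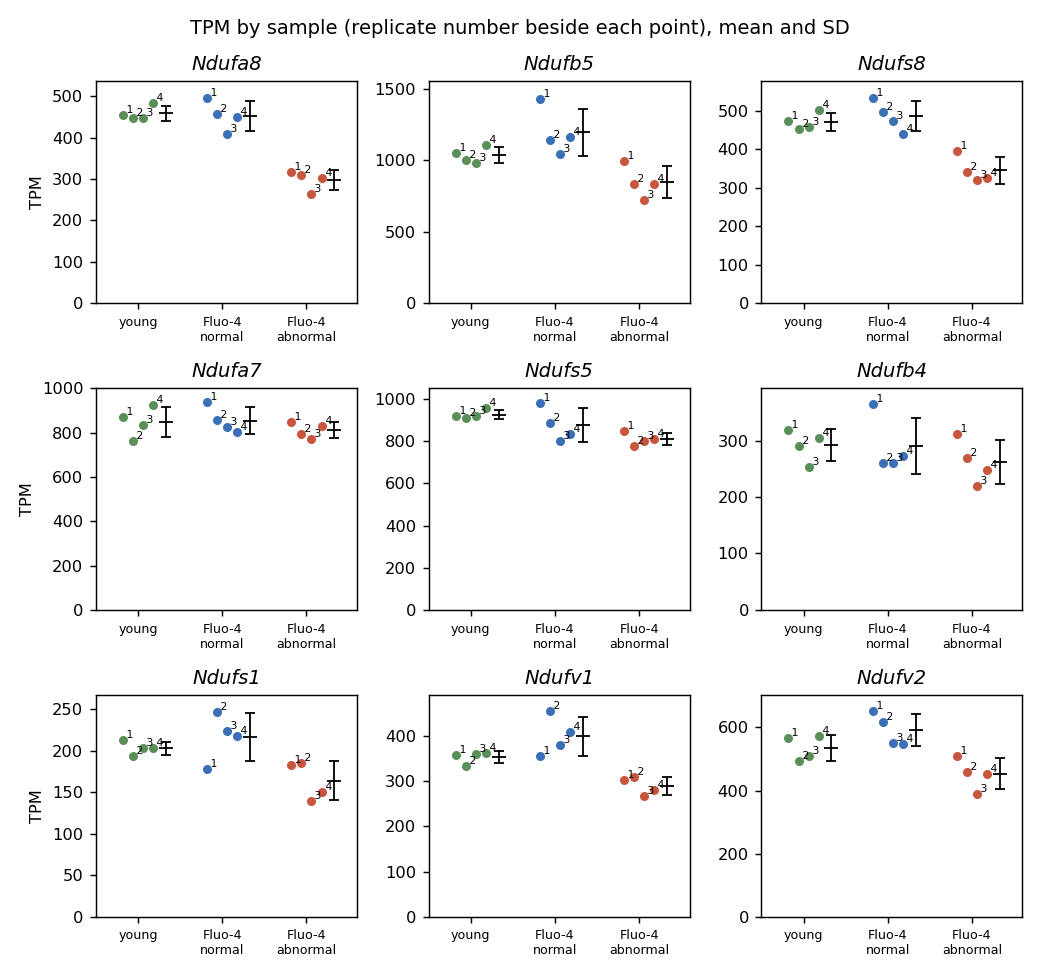
TPM of 9 members in every sample, with the replicate number beside each point and the group mean and SD (n = 4) as a bar. The top row has the members with the largest differences between abnormal and normal fibers, the middle row those with the smallest, and the bottom row the catalytic subunits Ndufs1, Ndufv1 and Ndufv2.

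The 4 supernumerary genes with core letters were all uncalled, with a median of -0.23 and values from -0.26 to -0.11. Ndufs6, a zinc-binding subunit, differed by -0.26 (limma adjusted p = 0.0521), and Ndufs4, whose loss causes Leigh-like disease, by -0.24 (limma adjusted p = 0.0509, and 0.0329 with the replicate block, where it was called). Ndufv3 differed by -0.22 (limma adjusted p = 0.0913). The abnormal and normal samples of these 3 genes did not overlap.

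Ndufs5 differed least of the 4, at 847, 778, 800 and 809 TPM in abnormal fibers and 983, 886, 800 and 834 TPM in normal fibers. Its groups overlapped, and the difference was -0.11 (95% interval -0.26 to 0.04; limma adjusted p = 0.328).

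Read by letters, the core-lettered genes had a median of -0.26 (6 of 11 called) and the accessory genes a median of -0.35 (17 of 25 called), a difference of 0.084. Read by function, the order turned: the median was -0.40 for the catalytic subunits and -0.34 for the other 29 members (17 called), a difference of -0.055. Without the members that have a near-identical copy elsewhere in the genome, the difference by letters was -0.034. With a trend on transcript length removed from each sample, an alternative chosen after seeing the data, it was -0.105. The coding sequences of the catalytic subunits are longer (median 1059 bases) than those of the others (429 bases), and the lengths used for the trend were of 1 annotated transcript per gene, which for several members is far longer than its coding part.

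The balance of the core-lettered and accessory classes in single samples overlapped between the groups. The mean log2 level of the core-lettered genes minus that of the accessory genes was -0.373, -0.254, -0.290 and -0.316 in the abnormal samples. It was -0.461, -0.264, -0.294 and -0.322 in the normal samples and -0.384, -0.332, -0.298 and -0.380 in the young samples. Normal sample 1 had the lowest value of all 12, and the groups overlapped throughout. Between same-numbered samples it was higher in the abnormal sample each time, by 0.088 in number 1 and by 0.010, 0.004 and 0.006 in the others. The catalytic subunits minus the others gave -0.54 ± 0.06 (SD, n = 4) in abnormal, -0.49 ± 0.13 in normal and -0.54 ± 0.05 in young fibers, again with overlap. Between same-numbered samples it was higher in abnormal number 1 (0.107) and lower in the others (-0.053, -0.143 and -0.110). The N module minus all other members was higher in the abnormal sample of each number, by 0.081, 0.048, 0.079 and 0.098, while the groups overlapped. These are descriptions of the balance and carry no test.

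**Figure D4:**
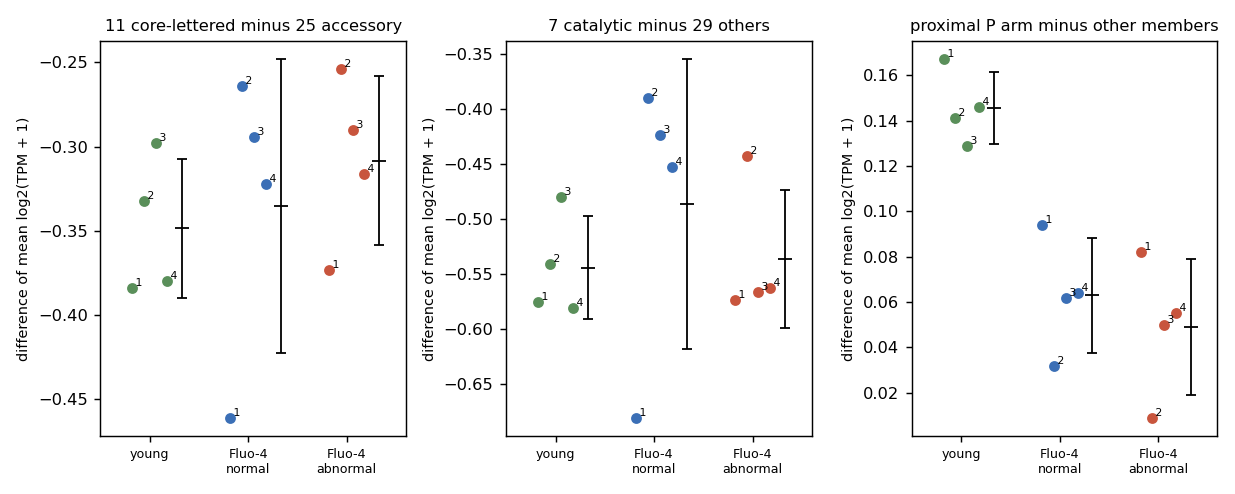
Difference of mean log2(TPM + 1) between classes of members in each of the 12 samples, with the group mean and SD (n = 4) as a bar. In the first and second panels the 3 groups overlap, and in the third (proximal membrane arm minus all other members) the 4 young samples, at 0.129 to 0.167, lie above the 8 aged samples, at 0.009 to 0.094.

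By module, the Q module had a median of -0.39 with 5 of 6 members called, and the distal membrane arm a median of -0.38 with 9 of 11 called. The proximal membrane arm had a median of -0.34 with 5 of 9 called. The N module had the smallest median, -0.26, with 4 of 10 called, and it was divided: Ndufv1, Ndufs1 and Ndufv2 lay between -0.46 and -0.39, while its 7 supernumerary members lay between -0.27 and -0.08. Of those 7, Ndufa6, a small subunit of the LYR family, was called (-0.27, limma adjusted p = 0.0413).

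Ndufa7 was the least changed member, at 850, 794, 771 and 828 TPM in abnormal and 937, 858, 827 and 801 TPM in normal fibers. The groups overlapped (-0.08, 95% interval -0.23 to 0.08; limma adjusted p = 0.548). Ndufa12, a relative of an assembly factor, differed by -0.25 without overlap (limma adjusted p = 0.0575), and Ndufa2, which has a thioredoxin-like fold, by -0.19 (limma adjusted p = 0.143).

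The accessory members of the Q module, Ndufa5 and Ndufa9, fell by 0.41 and 0.38 on the log2 scale (limma adjusted p = 0.0215 and 0.00234). Ndufa9, which has a dinucleotide-binding fold and sits where the arms meet, varied little within a group. It measured 301, 286, 259 and 277 TPM in abnormal fibers, 363, 374, 364 and 361 TPM in normal fibers and 360, 334, 340 and 347 TPM in young fibers. All 4 normal samples lay above all young samples, and all abnormal samples below both groups. The difference of normal from young fibers was 0.08 and was not called (limma adjusted p = 0.6). Of the 36 members 1 had all normal samples above all young samples, as had 437 of all 14429 genes, a like share.

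In the proximal membrane arm, Ndufa8, a twin-cysteine subunit on the intermembrane space side, had the largest difference of all members. It measured 317, 311, 263 and 302 TPM in abnormal fibers, 495, 457, 408 and 449 TPM in normal fibers and 456, 448, 447 and 485 TPM in young fibers. The abnormal samples lay far below both other groups, which overlapped each other (-0.60 ± 0.08 SE against normal, n = 4 and 4; limma adjusted p = 0.000730). Ndufc2 (-0.47), Ndufa11 (-0.45), Ndufa1 (-0.37) and Ndufa10 (-0.31) were also called, Ndufa10 not with the replicate block (limma adjusted p = 0.0531). Ndufa3 (-0.34, limma adjusted p = 0.0607), Ndufa13, known as GRIM-19 (-0.23, limma adjusted p = 0.152), and Ndufc1 (-0.19, limma adjusted p = 0.370) overlapped between the groups and were not called. With the block Ndufa3 was called (limma adjusted p = 0.0241).

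In the distal membrane arm, Ndufb5 led with 995, 832, 722 and 835 TPM in abnormal fibers, 1432, 1145, 1046 and 1163 TPM in normal fibers and 1055, 1003, 982 and 1108 TPM in young fibers. The values of abnormal and normal fibers did not overlap (-0.50 ± 0.11 SE, n = 4 and 4; limma adjusted p = 0.0124). Abnormal sample 1 reached the range of the young samples. Ndufb9, the most abundant member, fell by 0.46 (limma adjusted p = 0.0113), and Ndufb2, Ndufb3, Ndufb6, Ndufb8, Ndufb10 and Ndufb11 lay between -0.42 and -0.34, all called.

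Ndufab1, the mitochondrial acyl carrier protein, was called with overlapping groups, at 434, 382, 282 and 321 TPM in abnormal and 573, 495, 388 and 511 TPM in normal fibers (-0.47, limma adjusted p = 0.0422). The abnormal sample 1 lay above normal sample 3. Ndufb7, another twin-cysteine subunit, was not called (-0.14, limma adjusted p = 0.233).

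Ndufb4 was not called either, at 311, 270, 220 and 248 TPM in abnormal and 364, 260, 261 and 273 TPM in normal fibers (-0.14, 95% interval -0.41 to 0.13; limma adjusted p = 0.516). The groups overlapped, and normal sample 1 stood well above the other normal samples. Its values rest on reads that the counting could divide: the coding sequence of Ndufb4 is 100% identical to that of Ndufb4c, a transcribed processed pseudogene listed at 680 to 1150 TPM. Ndufb4c held 75.7% to 76.2% of their summed level in the 3 groups, and the sum differed by -0.17.

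In all, 8 members had a copy of at least 95% identity over most of the coding sequence: Ndufa12, Ndufab1, Ndufb3, Ndufb4, Ndufb11, Ndufs3, Ndufs5 and Ndufs6. The copies took 22.1% to 23.1% of the summed level for Ndufa12 and 36.5% to 37.6% for Ndufab1, and under 2% for the others except Ndufb4. These shares were alike in the 3 groups for Ndufa12, Ndufab1 and Ndufb4. Of the 8, 4 were called lower with a median of -0.26, against 19 of the 28 without a copy with a median of -0.37. Beyond copies, 23 members overlap exons of another gene by at least 100 bases, and 21 of them do so on the opposite strand. Ndufb2, Ndufb8, Ndufb9 and Ndufc1 overlap a gene on the same strand. The longest overlap was 1740 bases in Ndufb9, 1432 in Ndufs1 and 1382 in Ndufs7.

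The count of calls depended on the fit more than the direction did. All 36 members stayed lower in all 20 alternatives. At an unadjusted p under 0.05, 31 were lower in the fit reported here and 29 to 36 in the alternatives, and in the fit reported here 4.34% of all genes were. With only the abnormal and normal groups in the fit 9 members were called at the same median difference (-0.348), and the calls over all genes fell from 287 to 145 lower. With the share of Myh4 among the adult myosins as a covariate 8 were called, with a median of -0.340 and 108 genes called lower in all. Less the all-gene median, this was -0.505, in place of -0.451. With the transcript length trend removed, the members' median less the all-gene median was -0.328, and 26 members were called. Over all genes 991 were then called lower and 453 higher, in place of 287 and 1062.

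The Myh4 share was higher in most abnormal samples, and its ranges overlapped between abnormal and normal fibers. Myh4 encodes the fastest myosin of mouse muscle, and it made up 98.9% to 99.7% of the summed level of 4 adult myosins in abnormal fibers, 93.7% to 99.2% in normal fibers and 96.9% to 98.5% in young fibers. Myh4 itself was higher in abnormal than in normal fibers (0.66, limma adjusted p = 0.0198). Myh1, the IIx myosin, was 76.1 ± 48.0 TPM (SD, n = 4) against 334 ± 227 TPM, with overlapping groups, and was not called (-1.81, limma adjusted p = 0.0870). In normal samples 1 to 4 the Myh4 share was 99.23%, 93.72%, 95.21% and 96.85%. The members' summed levels in those samples were 32720, 29370, 27170 and 27620 TPM. The part of the fiber type in the members' differences was not tested beyond the covariate.

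**Figure D5:**
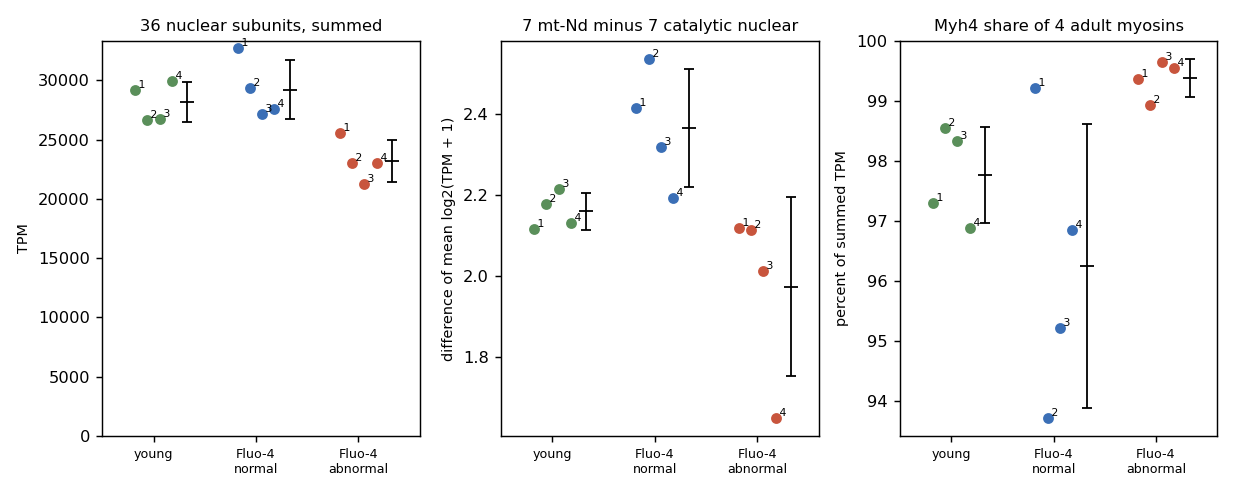
Summed TPM of the 36 members (from 0), the mean log2(TPM + 1) of the mt-Nd genes minus that of the catalytic nuclear subunits, and the share of Myh4 in the summed TPM of Myh4, Myh1, Myh2 and Myh7, in each sample with the group mean and SD (n = 4). The abnormal samples have the lowest sums, and 3 of them a higher Myh4 share than every other sample.

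Promoters of the members were searched for motifs of factors known to drive respiratory genes, in RefSeq windows of 300 bases (from 250 before to 50 after the start, GRCm38.p6). Such windows were held for 32 members. The share of all 27025 genes with a window is given beside each count, letters were matched on both strands, and a match is a description of the letters, not of binding. The NRF1 letters CGCATGCG, which read the same on both strands, were in 2 members (6.25%, against 2.07% of all genes), Ndufa8 and Ndufa11. The ERR half-site AAGGTCA was in 3 (9.38%, against 5.38%), the ETS letters CCGGAAG in 4 (12.5%, against 9.93%) and the GC box GGGCGG in 15 (46.9%, against 38.2%). The YY1 letters AAGATGGC were in 7 (21.9%, against 3.19%), and 7 members held none of these motifs.

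The sites of NRF1, the ERR half-site and YY1 are shown because they mark the member with the largest difference, members with small differences and the motif whose share stood furthest above that of all genes. The first set holds the NRF1 letters in capitals, on the strand of the gene, at chr2:35939344-35939367 (minus strand) for Ndufa8 and chr17:57024695-57024718 (plus strand) for Ndufa11, both matched to GRCm39.
Ndufa8: gctggagaCGCATGCGcagatggt
Ndufa11: gcactgcgCGCATGCGcgcacgcc
The NRF1 letters of Ndufa8 began 9 bases before the annotated start, and those of Ndufa11 began 59 bases before it. Both genes fell in abnormal fibers, by 0.60 and 0.45, and the members without these letters had a median of -0.34. This set was shown because it holds the member with the largest difference, so these values cannot show a link to the letters. Such a link was not tested.

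The ERR half-site is in capitals in the next set, in the reverse orientation in Ndufs5. Their positions are chr6:39569310-39569332 (plus strand), chr16:37474771-37474793 (minus strand) and chr4:123612193-123612215 (minus strand).
Ndufb2: gcagcagtAAGGTCAgccaagag
Ndufb4: tgagcctgAAGGTCAgactcgag
Ndufs5: ctcgagtgTGACCTTgctcaagt
Of these, Ndufb2 fell by 0.42, and Ndufb4 and Ndufs5 are the uncalled members described above, at -0.14 and -0.11. The same letters thus stood before members with unlike differences.

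The YY1 letters are in capitals in the last set, of which 3 are shown, at chr6:126826063-126826086 (minus strand), chr10:80085299-80085322 (plus strand) and chr13:73476553-73476576 (minus strand).
Ndufa9: tgtgggagAAGATGGCggccgccg
Ndufs7: ccgaggccAAGATGGCggcgctgg
Ndufs6: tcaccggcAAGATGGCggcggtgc
In all 7 members with these letters (also Ndufa3, Ndufb8, Ndufc1 and Ndufs4), they lay after the start, on the strand of the gene, and the ATG inside them was the start codon. These members' median difference was -0.34, and that of the members without the letters was -0.35.

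The second comparison, of Fluo-4 abnormal with young fibers, used the same abnormal samples. Again all 36 members had a lower mean, with 16 called and a median of -0.29. Of all genes, 2.41% were called lower, and their median was 0.07. In 23 members the samples did not overlap, against 3.95% of all genes. By letters, 5 of 11 core-lettered genes (median -0.24) and 11 of 25 accessory genes (median -0.31) were called, and of the catalytic subunits 4 of 7 (median -0.29).

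Ndufa8 again differed most (-0.62, limma adjusted p = 0.000365), followed by Ndufc2 (-0.53), Ndufs8 (-0.45) and Ndufa11 (-0.45), all called. Ndufa7 differed least, by -0.06 (limma adjusted p = 0.654). Of the catalytic subunits, Ndufs3, Ndufs7, Ndufs8 and Ndufv1 were called, while Ndufs1 (-0.31, limma adjusted p = 0.0901) and Ndufv2 (-0.24, limma adjusted p = 0.111) were not. Ndufs6 was called here (-0.28, limma adjusted p = 0.0471). Leaving out young sample 1, young sample 4 or abnormal sample 4 left 7 calls, abnormal sample 3 left 8 and young sample 3 left 10. In these fits 198 to 239 of all genes were called lower, in place of 348. The members' median in them was -0.304 to -0.247.

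The third comparison, of normal fibers of aged mice with young fibers, showed little. No member was called by limma in either direction, and of all genes 0.589% were called lower and 0.561% higher, shares near which 0 of 36 lies. At an unadjusted p under 0.05 no member was lower (7.89% of all genes were) and 1 was higher (5.04% of all genes were), Ndufv1, the flavin subunit (0.17, limma adjusted p = 0.374). The mean of 27 members was higher in the aged normal fibers and that of 9 was lower, with a median of 0.04. Of all 14429 genes tested, 6278 had a higher and 7947 a lower mean, with a median of -0.02. Without normal sample 1, 19 members were lower and the median was -0.01.

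Ndufc1, a single-pass subunit of the membrane arm, stood lowest at 1485, 1201, 1129 and 1229 TPM in normal and 1648, 1388, 1310 and 1508 TPM in young fibers. The groups overlapped (-0.22, 95% interval -0.49 to 0.05; limma adjusted p = 0.513). Ndufa3 (0.22) and Ndufb5 (0.20) stood highest, and the intervals of both included 0. All 7 catalytic subunits had a higher mean in the aged normal fibers (median 0.09), as had 6278 of all 14429 genes.

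The proximal membrane arm was the module in which the young fibers stood apart, a pattern picked after its values were seen. The mean log2 level of its 9 members minus that of the others was 0.167, 0.141, 0.129 and 0.146 in young samples, 0.094, 0.032, 0.062 and 0.064 in normal samples and 0.082, 0.009, 0.050 and 0.055 in abnormal samples. All young samples lay above all aged samples. In the third comparison 5 of its 9 members had a lower mean (Ndufa8, Ndufa10, Ndufc1, Ndufc2 and Ndufs5), against 4 of the other 27. Of all 14429 genes tested, 7947 had a lower mean, so the 5 of 9 lay near the share over all genes. The median of the 9 was -0.01, with values from -0.22 to 0.22, and none was called.

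The genes around the nuclear subunits were summarized from fixed lists. The 7 mitochondrially-encoded subunits (mt-Nd genes), which form the catalytic membrane arm and have copies in the nuclear genome that can take reads, were all called lower in abnormal than in normal fibers, with a median of -0.72 and values from -0.90 for mt-Nd3 to -0.69 for mt-Nd4l. Against young fibers all 7 were lower and 2 were called (median -0.42), and in normal against young fibers all 7 were higher and none was called by limma (median 0.32, 3 at an unadjusted p under 0.05). Their mean log2 level minus that of the 7 catalytic nuclear subunits was 2.12, 2.11, 2.01 and 1.65 in abnormal fibers and 2.42, 2.54, 2.32 and 2.19 in normal fibers, without overlap, and 2.12 to 2.21 in young fibers.

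Of 19 complex I assembly factors tested, 12 had a lower mean in abnormal than in normal fibers and 3 were called (median -0.08). Of all 14429 genes tested, 4247 had a lower mean and 1.99% were called lower (median 0.10). Nuclear subunits of the other complexes were called in 3 of 4 for complex II (median -0.45), 8 of 9 for complex III (-0.39), 11 of 12 for complex IV, Ndufa4 included (-0.45) and 16 of 17 for complex V (-0.44). Ndufa4, a complex IV subunit despite its name, fell by 0.39 (limma adjusted p = 0.0236), and its relative Ndufa4l2 was at 0.929 ± 0.564 TPM (SD, n = 4) in abnormal and 1.07 ± 0.66 TPM in normal fibers.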

How the data were processed

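RNA of isolated EDL myofibers (10 ng, SMART-Seq v4, which keeps no strand) was sequenced by the authors, aligned to GRCm39 with DRAGEN and deposited as TPM, 1 table per sample, each summing to 1000000. The annotation release is not given in the sources used here. TPM keeps no depth, so the depth is unknown and no interval from read counts is given.

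Lines with the same symbol were summed, and symbols were matched to GENCODE vM39 and RefSeq. Protein-coding and mitochondrially-encoded genes with a mean of at least 0.02 TPM in 1 group or more were tested on log2(TPM + 1), which slightly understates changes, with limma 3.58.1 in R 4.3.3 (1 fit of the 3 groups of 4, variance trend, Benjamini-Hochberg adjustment, 14429 genes). The methods name Student's test in general, and the limma model was used in its place across genes. Values of a class are medians and carry no test. BLAST 2.17.0 found copies of the coding sequences in GRCm39 (identity of at least 95% over 100 bases and 50% of the sequence), and figures were drawn with matplotlib 3.10.9 in Python 3.11.15.

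All members may be named. Those given in full are the 3 largest and 3 smallest differences between abnormal and normal fibers, the catalytic subunits and the members whose call differs from that of most. Other genes are limited to the mt-Nd genes, Ndufa4, Ndufa4l2, the myosins and counts over fixed lists. Members and lists were chosen with earlier results of these data known. Protein sequences were not used here. The counts and medians cover all 36 members, and the values of 1 member are not reported here or drawn by name.

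Same-numbered abnormal and normal samples deviated together from their group means over 5006 genes (r = 0.49, 0.41, 0.42 and 0.31), so the number was used as a block in an alternative. For same-numbered abnormal and young samples r was 0.02 to 0.22, and for same-numbered normal and young samples -0.10 to 0.20, and these share only a number. Between abnormal and normal samples of unlike number r ran from -0.39 to 0.26. Against young samples of unlike number it reached 0.26 for abnormal and 0.30 for normal samples. The other alternatives were TMM-type factors, a pseudocount of 0.1, a total that leaves out mitochondrially-encoded genes, a minimum of 5 TPM or none, non-coding genes included, only the groups compared, the Myh4 share as a covariate, leaving out each sample and other classes of members. Copies summed into their member and a transcript length trend removed (14073 of the 14429 genes had a length), also with the block, were added after seeing the data.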

Additional observations from a re-analysis of the deposited data

Results flagged for a closer look

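Of 132 groups of 4 values checked for an outlying sample, 5 were flagged because the gap to the nearest sample was a larger part of the group's range than Dixon's 95% limit allows, and chance flags about 1 in 20. In Fluo-4 normal fibers, sample 1 was the high sample for Ndufb4 (364 TPM, the others 260 to 273 TPM), Ndufb11 (712 TPM, the others 601 to 617 TPM) and Ndufc2 (623 TPM, the others 533 to 547 TPM). In Fluo-4 abnormal fibers, sample 2 had the highest mean log2 level of the catalytic subunits minus the other members, at -0.443, against -0.574 to -0.563 in the other samples. In young fibers, sample 3 had the highest level of the N module minus the other members, at -0.133, against -0.175 to -0.171.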

How the results depend on the processing

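All 36 members kept a lower mean in abnormal than in normal fibers, and than in young fibers, in each of the 20 alternatives of each comparison, and none was called in normal against young fibers in any. The number called between abnormal and normal fibers (23) was 9 with only these groups in the fit and 8 once the Myh4 share was a covariate, at medians of -0.348 and -0.340 (-0.348 as reported), while the lower calls over all genes were 145 and 108 in place of 287. Leaving out a sample gave 13 to 25 calls: 14 without normal sample 2, 15 without abnormal sample 2 and 13 without abnormal sample 3. The lower calls over all genes were then 184 to 297. Against young fibers (16), leaving out a sample gave 7 to 20 calls, beside 198 to 324 lower calls over all genes in place of 348. The replicate block left 23 calls between abnormal and normal fibers, 21 of them shared with the fit without it (Ndufs1 and Ndufa10 lost, Ndufs4 and Ndufa3 gained), and gave 11 calls against young fibers and 0 between normal and young fibers, where the numbers pair no samples. Over all genes the block gave 232, 185 and 0 lower calls in these comparisons. Ndufa8, Ndufa9, Ndufa11, Ndufb2, Ndufc2 and Ndufs8 were called in every alternative of both comparisons with abnormal fibers, and Ndufa2, Ndufa7, Ndufb4, Ndufb7 and Ndufs5 in none of the abnormal against normal alternatives.

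With TMM-type factors the members' median was -0.575 against normal and -0.467 against young fibers (-0.348 and -0.293 as reported), and the calls over all genes were 310 higher and 545 lower in place of 1062 higher and 287 lower. Without the mitochondrially-encoded genes in the scaling they were 635 higher and 320 lower. With the length trend removed they were 453 higher and 991 lower, and with that and the replicate block 604 higher and 1325 lower. The members' median less the all-gene median was then -0.328 and -0.325, in place of -0.451. The core-lettered minus accessory median between abnormal and normal fibers (0.084) was -0.105 with the length trend removed, -0.104 with that and the replicate block, -0.055 for the catalytic subunits against the others and -0.034 without members with a copy. Against young fibers (0.062) it was -0.011 with the length trend removed, with or without the block. The cause of these shifts was not tested. The unknown depth and the 4 samples a group limit what small differences between classes can show.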

Other observations

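Ndufb1-ps, the older symbol of the complex I subunit gene Ndufb1, was not taken in by the rule on symbols, and it is given here with its values already seen. It measured 443, 372, 308 and 369 TPM in Fluo-4 abnormal, 530, 440, 399 and 408 TPM in Fluo-4 normal and 405, 355, 348 and 425 TPM in young fibers. The groups overlapped, and abnormal and normal fibers differed by -0.25 (limma adjusted p = 0.185).

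Across the 36 members, the difference between abnormal and normal fibers had a Pearson r of -0.12 with log2 coding length and of 0.04 with the log2 level in young fibers. These are descriptions across genes of the same 12 samples, which are not independent replicates.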
